A study of Mus musculus with 225 samples.

Results

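Tendon-rule cells were the zeugopod cells in which 2 or more of the 3 tendon markers *Scx*, *Tnmd* and *Tnc* had 5 reads or more. This rule selected 17 of the retained zeugopod cells, which numbered 58 in one sequencing run and 65 in the other, out of 199 retained cells in the series. They were compared with the 71 zeugopod cells that met neither this rule nor a chondrogenic one, which asked for the same 5 reads in 3 or more of *Sox9*, *Col2a1*, *Acan*, *Col9a1* and *Matn1*. Of the 17 tendon-rule cells, 3 also met the chondrogenic rule and were kept. The other 35 zeugopod cells met only the chondrogenic rule and entered neither class. The members were chosen by measured read counts, so the levels of all the rule genes are descriptions.

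Single-cell RNA-seq was made from mouse forelimbs at E12.5, with 1 cell per library. All embryos were Hoxd11::GFP heterozygous on a mixed C57Bl6CBAF1 background. The GFP (a tau-GFP) sits in frame in *Hoxd11*, so the sort for the brightest GFP cells favoured cells that used this gene, in both classes compared here and in the autopod. The zeugopod is the forearm part of the limb bud and the autopod is the hand part. Limbs were pooled before dissociation and labels do not tie cells to embryos. The cells of 1 tissue are therefore 1 sample, and no test between classes was possible: SDs are over cells, and exact 95% intervals on shares cover the counting of cells only. The zeugopod cells came from the runs NXT0142 and NXT0143, with 11 and 6 tendon-rule cells and 31 and 40 comparison cells.

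Tendon progenitors arise in the limb mesenchyme among cells that will also form cartilage, muscle connective tissue and dermis. *Scx* encodes scleraxis, the basic helix-loop-helix factor that marks tendon progenitors, and *Tnmd* encodes tenomodulin, a membrane protein of maturing tendon cells. *Tnc* encodes tenascin-C, a matrix glycoprotein that is found in tendon, but also in perichondrium and other embryonic mesenchyme. TGF-beta and FGF signals are known to promote the tendon fate, and progenitors that hold both *Scx* and *Sox9* are known to contribute to the attachment of tendon to bone.

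The class rested on *Scx* with *Tnc*. Of the 17 tendon-rule cells, 16 held *Scx* and *Tnc*, and 1 held *Tnmd* and *Tnc* without a read of *Scx*. *Scx* lies on chromosome 15 at 76457452-76459458 on the plus strand of GRCm38, within an intron of *Bop1* with which it shares no exon bases. *Tnc* lies on chromosome 4 at 63959785-64047015 on the minus strand, with 176 exon bases shared with a gene on the other strand, and *Tnmd* on chromosome X at 133850980-133865577 on the plus strand. In the tendon-rule cells *Scx* ranged from 0 to 1720 reads with a median of 132. *Tnc* ranged from 5 to 6035 reads with a median of 860. Thus 10 of the 17 cells had at least 100 reads of *Scx*, and 13 had at least 100 of *Tnc*.

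*Tnmd*, the marker of more mature tendon cells, was close to absent. It reached 5 reads in 2 of the retained zeugopod cells (1.63%, exact interval 0.198 to 5.75%). The tendon-rule cell had 2313 reads of it beside 5458 of *Tnc*, and the other cell, in the comparison class, had 5294 reads of *Tnmd* with 1 of *Scx* and 0 of *Tnc*. The label of the class is therefore carried by *Scx* and *Tnc*, and the cells are called here by their rule.

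Few cells sat near the threshold. The second highest of the 3 marker counts, which decides membership, was 5 reads in the cell just inside the rule and 11 in the next. Just outside it was 3 reads in 1 cell and 2 in the cells that followed. Of all the cells outside, 9 had any read of a second marker.

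**Figure D1:**
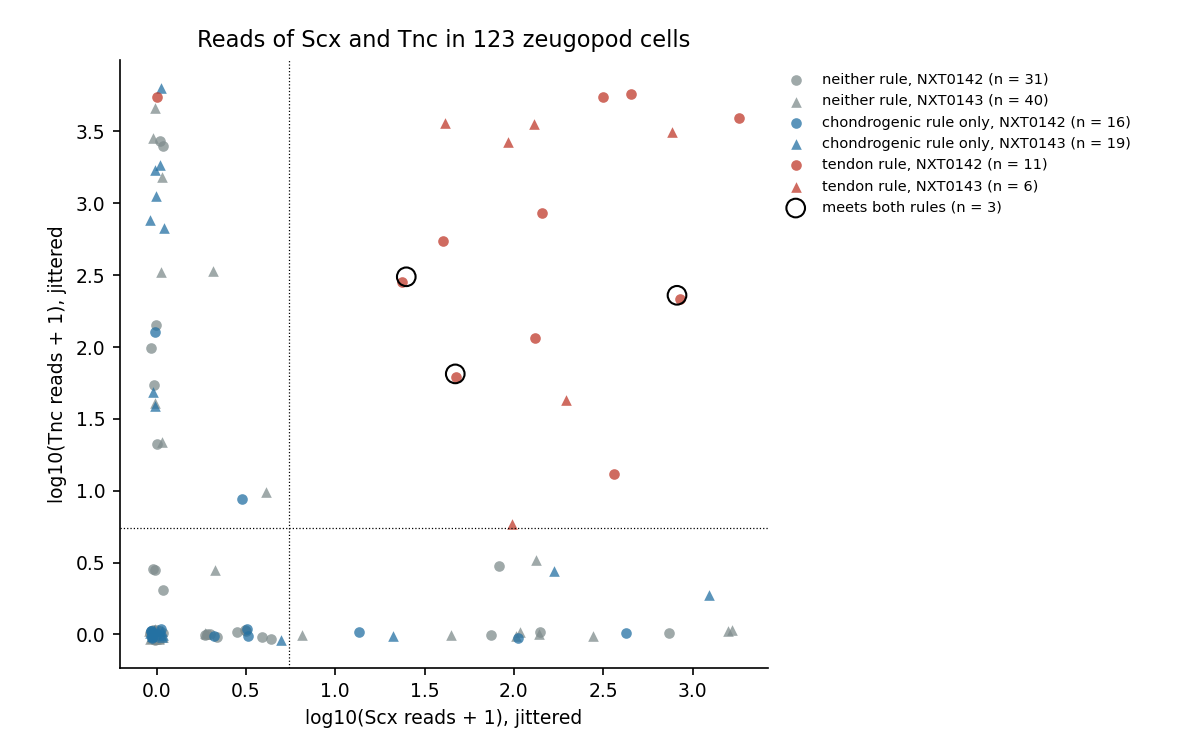
Reads of *Scx* (x axis) and *Tnc* (y axis) in the retained zeugopod cells, both as log10(reads + 1) with a small jitter. Each point is a cell, colour gives the class, shape gives the run, dotted lines mark the 5-read threshold and rings mark the 3 cells under both rules. The 16 cells at upper right hold both genes, and the red cell at *Scx* 0 is the one with *Tnmd*.

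Each of *Scx* and *Tnc* was found alone at least as often as in the pair. *Scx* without the other markers was found in 19 zeugopod cells, *Tnc* alone in 24, the pair in 16, and none of the 3 genes in 62. *Tnc* reached 5 reads in 16 of the 35 cells with *Scx* (45.7%, exact interval 28.8 to 63.4%) and in 25 of the 88 without it (28.4%, 19.3 to 39.02%). The 2 intervals overlapped. Of the 24 cells with *Tnc* alone, 10 met the chondrogenic rule, as did 6 of the 19 with *Scx* alone.

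The tendon-rule cells made up 13.8% of the zeugopod cells (exact interval 8.26 to 21.2%), with 11 of 58 cells in run NXT0142 (18.97%, 9.87 to 31.4%) and 6 of 65 in NXT0143 (9.23%, 3.46 to 19.02%). No autopod cell met the rule. With 0 of 76 autopod cells, the exact interval reached 4.74%. *Scx* reached 5 reads in 6 of these cells (7.89%) and *Tnc* in 2 (2.63%), against 28.5% and 33.3% of zeugopod cells. Most autopod cells came from a run with no zeugopod cell, and in the shared run NXT0143 the exact interval for 0 of 17 autopod cells reached 19.5%. Tissue and run therefore cannot be told apart here.

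The chondrogenic markers chose the cells left out of the comparison, so their levels are descriptions. *Sox9*, the master factor of cartilage, had at least 5 reads in 12 of 17 tendon-rule cells, with a median of 1850 reads. It reached 5 reads in 32 of the 71 comparison cells and in all 35 cells under the chondrogenic rule alone. *Acan* and *Col9a1*, which encode aggrecan and a chain of collagen IX, reached 5 reads in 1 and 3 of the 17 tendon-rule cells, and in 15 and 32 of the 35 cells under the chondrogenic rule alone. *Matn1*, which encodes the cartilage matrix protein matrilin-1, was at 0 reads in all 17 tendon-rule cells and in 31 of those 35.

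The *Sox9* level depended on the cells it was set against. The mean of log2(normalized value + 1) was 6.27 ± 4.54 (SD, n = 17 cells) in tendon-rule cells and 3.54 ± 3.95 (n = 71) in comparison cells, a difference of 2.73. Removing the cells of the chondrogenic rule had taken *Sox9*-rich cells out of the comparison. Against all other zeugopod cells the *Sox9* difference was 0.56. Without the 3 cells that met both rules, 9 of 14 tendon-rule cells still had *Sox9*, and the difference from the 71 cells was 2.08.

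The depth of the 2 classes overlapped. The reads on genes per cell had a median of 3826798 in tendon-rule cells (786453 to 4985509) and 3105745 in comparison cells (234351 to 6801278). The median number of genes with a read was 4056 and 4012, a difference of 44. Within the runs this difference was -88 in NXT0142 and -123 in NXT0143, and it was -74.5 after each cell was thinned to 500000 reads.

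Across the transcriptome, tendon-rule cells differed from the comparison cells in many genes by size, but the 2 runs gave little common pattern. A gene was called when its mean log2(normalized value + 1) differed by at least 1 in size with the same sign in each run, among the 5198 genes with at least 5 reads in 25% of the cells of either class, the 3 tendon markers left out. By this rule 558 genes were higher in the tendon-rule cells, 10.7% of those tested, and 373 were lower, 7.18%. The tested genes kept *Sox9* and *Col2a1* of the chondrogenic rule, and *Sox9* was among the 558. The differences of all 5198 tested genes ran from -3.15 to 3.34 with a median of 0.10. Over the 5198 genes, 51.8% had the same direction in both runs, and Pearson's r between the differences of the runs was 0.04, a description across genes that are not independent. The means pooled both runs, and NXT0142 gave 11 of 17 tendon-rule but 31 of 71 comparison cells. Pooled differences, and the calls made on them, can therefore include a difference between the runs. For *Asb4* the pooled difference was 3.02, against 2.35 within each run. In simulated cells with an assumed spread between cells, the call rule also gave calls among unchanged genes. The numbers of calls therefore do not by themselves show a difference between the classes.

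**Figure D2:**
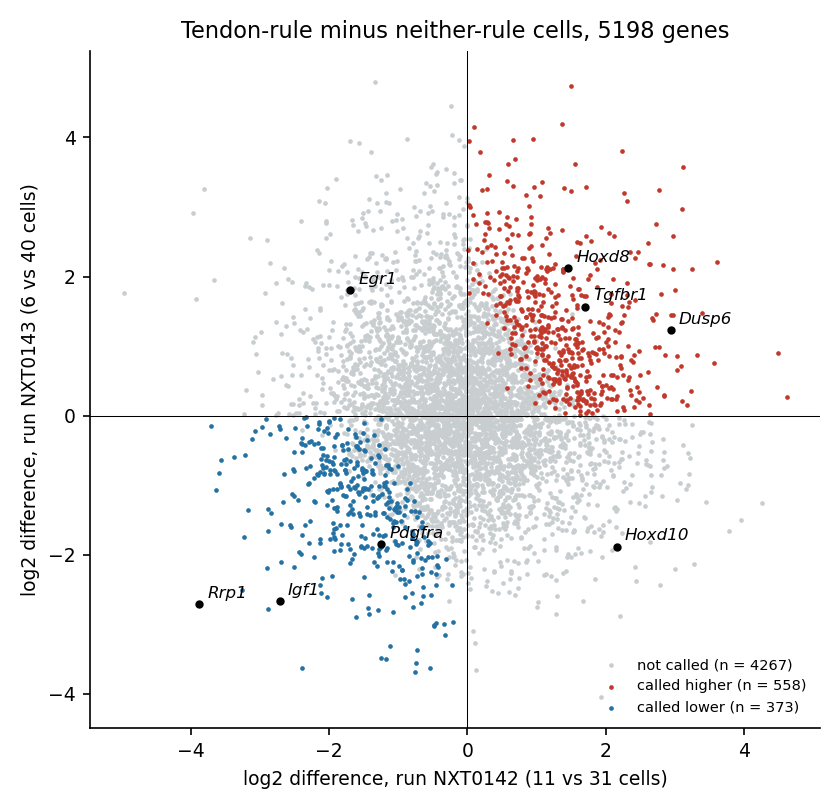
Difference in mean log2(normalized value + 1), tendon-rule minus comparison cells, in run NXT0142 (x axis) and run NXT0143 (y axis). Each point is 1 of 5198 genes, red for the 558 called higher, blue for the 373 called lower and grey for the rest. The cloud has no visible slope, and *Hoxd10* and *Egr1* lie in the quadrants where the runs differ in sign.

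Beside the tendon markers themselves, which chose the cells, the called genes with the largest positive differences were *Mtif2*, *Riok1*, *Tnfaip1*, *Gpaa1*, *Ethe1*, *Bace1*, *Aamp*, *RP24-95O4.6*, *Tspan12* and *Asb4*, with differences of 3.02 to 3.34. *Mtif2*, a mitochondrial translation initiation factor, had at least 5 reads in 12 of 17 tendon-rule cells (70.6%, exact interval 44.04 to 89.7%) and 18 of 71 comparison cells (25.4%, 15.8 to 37.1%), with differences of 3.12 and 3.58 in the runs. *Riok1*, a kinase that acts in the maturation of the small ribosomal subunit, had them in 14 of 17 cells and 30 of 71. *Tspan12* encodes a tetraspanin of the Norrin receptor complex and had them in 9 and 15 cells.

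The size of some of these differences came mainly from 1 run. *Gpaa1*, a subunit of the enzyme that attaches GPI anchors, differed by 4.62 in NXT0142 and 0.27 in NXT0143. *Ethe1*, a mitochondrial sulfur dioxygenase, differed by 4.48 and 0.90. *Bace1*, the beta-secretase, differed by 1.5 and 4.74, and 2061 of its 6348 exon bases are shared with genes on the other strand. Whether the counting used strand is not given in the sources used here. In the shared bases, reads of *Bace1* and of these partners therefore cannot be told apart.

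The called genes with the largest negative differences were *Rrp1*, *Krtcap2*, *Pfdn1*, *Txn2*, *Fblim1*, *Igf1*, *Msmo1*, *Ncs1*, *Ndufa8* and *Sucla2*, with differences of -3.15 to -2.35. *Rrp1*, which takes part in ribosomal RNA processing, had at least 5 reads in 8 of 17 tendon-rule cells and 51 of 71 comparison cells. *Krtcap2*, a subunit of the oligosaccharyltransferase, had them in 8 and 58 cells.

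*Igf1* and *Msmo1* were found in a smaller share of the tendon-rule cells. For *Igf1* this was 6 of 17 (35.3%, exact interval 14.2 to 61.7%) against 38 of 71 comparison cells (53.5%, 41.3 to 65.5%), intervals that overlapped. *Igf1*, a growth factor made by limb mesenchyme, had a lowest, median and highest level of 0.14, 0.27 and 12.8 in tendon-rule cells on the log2(normalized value + 1) scale, against 0.14, 2.82 and 12.1 in comparison cells. The classes overlapped over the whole range, and the single highest *Igf1* cell was a tendon-rule cell. The mean difference of *Igf1* was -2.46 against the 71 cells and -1.24 against all other zeugopod cells. *Msmo1*, an enzyme of sterol synthesis, had 5 reads in 0 of 17 tendon-rule cells (exact interval 0 to 19.5%) and in 25 of 71 comparison cells (35.2%, 24.2 to 47.5%).

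Gene lists of the limb were examined by their members. Of the 26 lists, 20 had a tested member. Their tested members held 15 called higher (11.6%) and 8 called lower (6.20%), close to the 10.7% and 7.18% of all tested genes. The 15 include *Sox9*, a gene of the chondrogenic rule that helped to choose the comparison cells, so its call is a description. The members had the same direction in both runs in 42.6% of cases. The lists were chosen with earlier results of these data known, and the values that follow are descriptions.

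**Figure D3:**
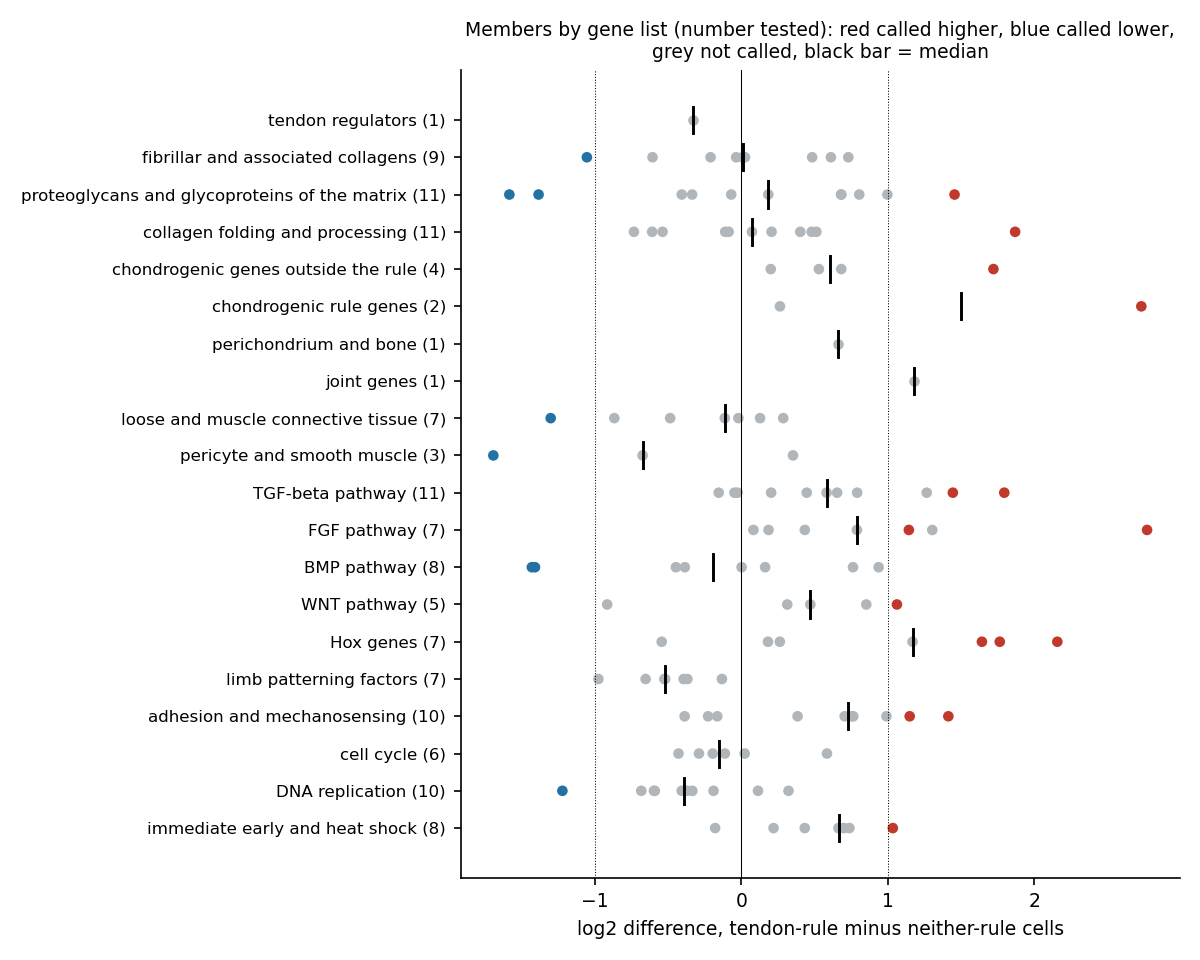
Difference in mean log2(normalized value + 1), tendon-rule minus comparison cells (x axis), for the tested members of each list (y axis, number tested in brackets). Red points were called higher, blue lower and grey not called, black bars are list medians and dotted lines mark differences of 1 in size. The 15 red and 8 blue points are spread over many lists, with 3 red points among the Hox genes. *Sox9*, a gene of the chondrogenic rule, is among the red points.

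Tendon regulators beyond the rule gave almost no measurement. Of 7 listed only *Egr1*, an early growth response factor that drives tendon collagen genes, was tested. It had a mean of 5.95 in tendon-rule and 6.28 in comparison cells, and its difference was -1.70 in NXT0142 and 1.81 in NXT0143. *Mkx*, the Mohawk homeobox factor of tendon, reached 5 reads in 2 of 17 tendon-rule cells and 11 of 71 comparison cells.

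The tendon collagens did not separate the classes by the rule. *Col1a1* and *Col1a2*, the 2 chains of collagen I, had at least 5 reads in all 17 tendon-rule cells and in 70 and 68 of the 71 comparison cells. The *Col1a1* level was 5.21, 7.997 and 10.7 at its lowest, median and highest in tendon-rule cells, and 0.38, 8.30 and 11.3 in comparison cells. The *Col1a2* difference was 0.73 and the *Col1a1* difference 0.61, neither of them called. Of the 9 tested collagens none was called higher and 1 was called lower, beside 10.7% and 7.18% of all tested genes. The 1 called was *Col6a3*, a chain of collagen VI, at -1.06. Its difference was -0.82 without the 3 cells under both rules and -0.78 against all other zeugopod cells.

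Among the 11 tested proteoglycans and glycoproteins of the matrix, 1 was called higher and 2 lower, beside 10.7% and 7.18% of all tested genes. *Vcan*, the large proteoglycan versican, had a mean of 5.53 ± 3.66 in tendon-rule and 4.07 ± 3.63 in comparison cells, with differences of 2.05 and 0.40 in the runs. The *Vcan* difference of 1.46 was 0.18 against all other zeugopod cells. *Thbs1*, which encodes thrombospondin-1, was called lower at -1.59, with -2.61 in NXT0142 and -0.31 in NXT0143. *Sparc*, which encodes osteonectin, was called lower at -1.39, with -0.68 and -2.69 in the runs. *Lum*, the small proteoglycan lumican, had a difference of 0.9973 that fell just short of the call, with 1.51 and 1.46 in the runs. *Bmp1*, the procollagen C-proteinase, was the 1 called member of 11 tested genes of collagen folding and processing, with a difference of 1.87 that was 2.84 in NXT0142 and 0.30 in NXT0143.

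In the FGF pathway 2 of 7 tested members were called higher and none lower, beside 10.7% and 7.18% of all tested genes. *Dusp6*, a feedback phosphatase that inactivates the kinase ERK, had a lowest, median and highest level of 0.44, 8.72 and 11.9 in tendon-rule cells and 0.44, 2.08 and 11.3 in comparison cells. Its mean was 6.70 ± 4.54 and 3.93 ± 3.76, a difference of 2.77 that was 2.94 in NXT0142 and 1.23 in NXT0143. *Dusp6* reached 5 reads in 12 of 17 (70.6%, exact interval 44.04 to 89.7%) and 40 of 71 cells (56.3%, 44.05 to 68.1%), and in 70.6% and 44.1% after thinning. *Spry1*, a Sprouty inhibitor, differed by 1.14, but was found in 5 of 17 and 10 of 71 cells only. *Spry4*, of the same family, differed by 0.79, with -0.40 in NXT0142 and 2.28 in NXT0143, and was not called. *Fgfr1*, a receptor, differed by 1.30, with -0.01 and 2.73 in the runs, and was not called.

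The TGF-beta pathway also had 2 members of 11 tested called higher, a receptor and a ligand, beside 10.7% of all tested genes. *Tgfbr1*, the type I receptor, had a lowest, median and highest level of 0.21, 4.63 and 8.81 in tendon-rule cells and 0.21, 0.69 and 9.70 in comparison cells. The *Tgfbr1* difference of 1.80 was 1.69 and 1.57 in the runs and 2.13 against all other zeugopod cells. *Tgfb2*, a ligand, differed by 1.44, with 1.62 and 0.83 in the runs. In both genes the ranges of the classes overlapped.

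**Figure D4:**
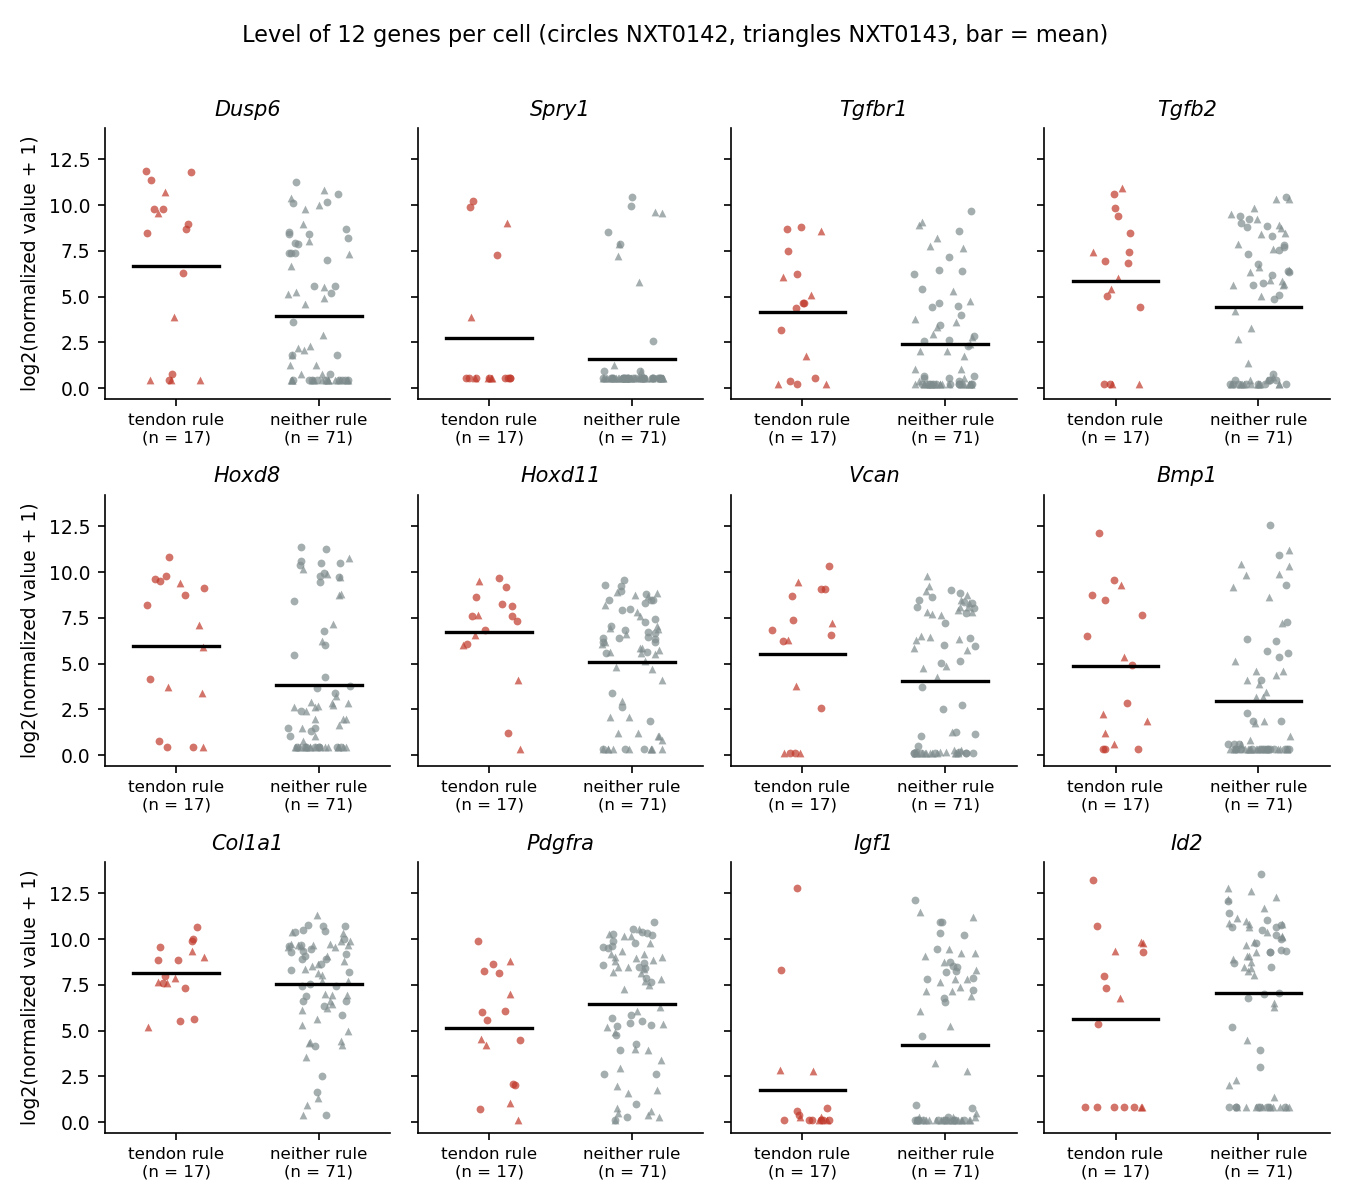
Level of 12 genes as log2(normalized value + 1) (y axis) in each of 17 tendon-rule and 71 comparison cells (x axis). Each point is a cell, circles are run NXT0142 and triangles NXT0143, and bars are class means. In each panel the classes overlap. In most panels many cells lie at the floor that a gene without reads takes, but no cell was without reads of *Col1a1* and few were without *Pdgfra*.

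Of the 7 tested Hox genes, which set position along the limb, 3 were called higher and none lower, beside 10.7% and 7.18% of all tested genes. *Hoxd8* had a mean of 5.98 ± 3.82 in tendon-rule and 3.82 ± 3.86 in comparison cells, a difference of 2.16. It was smaller within both runs, at 1.46 and 2.13. *Hoxd8* reached 5 reads in 13 of 17 cells (76.5%, exact interval 50.1 to 93.2%) and 40 of 71 (56.3%, 44.05 to 68.1%), intervals that overlapped, and in 70.6% and 33.8% of cells after thinning. *Hoxd11*, the gene that carries the GFP used in the sort, was found in 15 of 17 and 57 of 71 cells and differed by 1.64, with 1.02 and 1.51 in the runs. Of its exon bases, 455 are shared with *Gm28309* on the same strand. *Hoxa11*, the zeugopod paralogue, differed by 1.77, of which 2.49 in NXT0142 and 0.20 in NXT0143, and 800 of its exon bases are shared with the antisense gene *Hoxa11os*. *Hoxd10* differed by 2.16 in NXT0142 and by -1.88 in NXT0143 and was not called.

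In the BMP pathway 2 of 8 tested members were called lower and none higher, beside 7.18% and 10.7% of all tested genes. *Id2*, a target that BMP signals induce, had a mean of 5.62 in tendon-rule and 7.06 in comparison cells, a difference of -1.43. *Smad5*, a transducer, differed by -1.41. *Id1*, a related target, differed by 0.76, with 1.51 and -0.90 in the runs. Of the 5 tested WNT members, *Sfrp2*, a secreted Frizzled-related protein, was called higher at 1.06. Its difference was 1.03 in NXT0142, 0.29 in NXT0143 and 0.76 against all other zeugopod cells.

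Among genes of other connective tissue, *Pdgfra*, a receptor found on most mesenchymal fibroblasts, was called lower. Its level was 0.15, 5.61 and 9.91 at its lowest, median and highest in tendon-rule cells and 0.15, 7.72 and 10.9 in comparison cells. The *Pdgfra* difference of -1.30 was -1.25 and -1.85 in the runs and -0.53 against all other zeugopod cells. The remaining 6 of 7 tested members of this list were not called. *Osr1*, a factor of muscle connective tissue, differed by -1.79 in NXT0142 and 0.78 in NXT0143. None of the 7 tested limb patterning factors was called. The counts of both lists stand beside 10.7% of all tested genes called higher and 7.18% called lower.

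Among adhesion and mechanosensing genes 2 of 10 were called higher, beside 10.7% of all tested genes. These were *Cyr61*, a matrix-associated target of YAP, at 1.41 and *Itga5*, the integrin alpha-5 chain of the fibronectin receptor, at 1.15. The *Cyr61* difference was 0.65 in NXT0142 and 2.61 in NXT0143. Without the 3 cells under both rules the *Itga5* difference was 0.47. *Yap1* itself differed by -0.13 and 2.32 in the runs. Among the chondrogenic genes outside the rule, *Col9a2*, a chain of collagen IX, was called higher at 1.72. Against all other zeugopod cells, the chondrogenic ones included, the *Col9a2* difference was -0.16. Of the joint genes *Sulf1*, an extracellular sulfatase, was the 1 tested, with a difference of 1.18 that was 2.08 and -0.78 in the runs. *Gdf5*, a growth factor that marks the joint, reached 5 reads in 0 of 17 tendon-rule and 7 of 71 comparison cells. Other members of the list differed from it: at least 1 of the 7 joint genes reached 5 reads in 10 of 17 and 26 of 71 cells. At least 2 did in 1 and 6 of them. In the perichondrium and bone list *Ptch1*, the Hedgehog receptor, was the 1 tested, with a difference of 0.66. *Runx2*, the master factor of bone, reached 5 reads in 0 of 17 and 7 of 71 cells, and *Sp7* was at 0 reads in all of them. At least 1 of the 13 genes of this list in the counts reached 5 reads in 10 of 17 and 35 of 71 cells. At least 2 did in 5 and 18 of them. No cell cycle gene of 6 was called, beside 10.7% of all tested genes called higher and 7.18% called lower. Of 10 DNA replication genes, *Pcna*, the sliding clamp of the polymerase, was called lower at -1.22. *Fosb* was the 1 immediate early gene of 8 called, higher at 1.03 and at 0.90 against all other zeugopod cells, and such genes are known to rise when tissue is dissociated.

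Markers of other cell types were counted in both classes. *Myod1* and *Myog*, the factors that define muscle cells, were at 0 reads in all cells compared. At least 1 of 9 muscle markers reached 5 reads in 5 of 17 tendon-rule and 7 of 71 comparison cells, and no cell reached it in 2. The summed muscle level ranged from 0 to 291 CPM (reads per 1000000 reads on genes) in tendon-rule cells and from 0 to 6.94 CPM in comparison cells. The highest value came from *Myh3*, an embryonic myosin, in 1 cell. The 5 epithelial markers summed to 0 to 733 CPM and 0 to 1741 CPM, mainly *Epcam*, with a median of 0 in both classes. At least 1 of 3 macrophage markers reached 5 reads in 1 of 17 tendon-rule and 13 of 71 comparison cells, with summed levels of 0 to 3.61 CPM and 0 to 9.59 CPM in the classes. The 1 blood marker measured was at 0 reads in all tendon-rule cells. Endothelial markers summed to at most 2.61 and 19.2 CPM, and glial markers to at most 10.2 and 30.4 CPM. At least 1 pericyte or smooth muscle marker reached 5 reads in 13 of 17 tendon-rule and 55 of 71 comparison cells, and at least 2 did in 7 and 28 of them. These markers had a median sum of 19.9 CPM in tendon-rule cells, with 0 to 2227 CPM, and of 113.2 CPM in comparison cells, with 0 to 2518 CPM. In that list *Myl9*, a myosin light chain, was called lower at -1.70, which was -0.74 against all other zeugopod cells. The part of other cell types in the differences was not tested.

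Some genes were also counted by which of *Scx* and *Tnc* a cell held, in groups of cells looked at after their values were seen. Outside the chondrogenic rule, *Sox9* had 5 reads in 9 of 13 cells with *Scx* and *Tnc*, 9 of 13 with *Scx* without *Tnc*, 1 of 14 with *Tnc* without *Scx* and 22 of 44 with neither. *Dusp6* had them in 9 of 13, 11 of 13, 6 of 14 and 23 of 44 cells. The chondrogenic rule removes cells by *Sox9*, so the same was counted over all retained zeugopod cells.

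Over all of them, *Sox9* was found in 27 of 35 cells with *Scx* (77.1%, exact interval 59.9 to 89.6%) and 52 of 88 without (59.1%, 48.1 to 69.5%), or in 68.6% and 58.3% after thinning. In NXT0143 the thinned *Sox9* shares were 66.7% and 64.4%. *Dusp6* was found in 26 of 35 (74.3%, 56.7 to 87.5%) and 46 of 88 (52.3%, 41.4 to 63.04%), or in 71.4% and 42.9% after thinning. By *Tnc* the *Dusp6* shares were 60.98% with and 57.3% without it, or 58.97% and 47.5% after thinning. Within the runs they were 73.7% and 58.97% in NXT0142 and 50% and 55.8% in NXT0143. By *Scx* the *Dusp6* shares were 82.4% and 56.1% in NXT0142 and 66.7% and 48.9% in NXT0143. The intervals of the pooled shares overlapped for both genes. Of the 35 cells with *Scx*, 16 were tendon-rule cells, and both genes were already known to be higher in that class. These shares are therefore not separate from that difference and are descriptions.

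*Asb4*, an ankyrin-repeat protein among the 10 largest positive differences, had 5 reads in 26 of 35 cells with *Scx* (74.3%, 56.7 to 87.5%) and 36 of 88 without (40.9%, 30.5 to 51.9%). The gene was chosen for its difference in a class in which 16 of 17 cells held *Scx*, so these shares are a description. *Asb4* also differed between the runs, with 65.9% of the cells without *Scx* in NXT0142 and 19.1% in NXT0143. Within the runs its shares with *Scx* were 82.4% and 66.7%, and in NXT0142 the intervals with *Scx* (56.6 to 96.2%) and without it (49.4 to 79.9%) overlapped. *Bace1* and *Igf1*, among the largest differences in the 2 directions, were counted the same way. *Bace1* was found in 57.1% of cells with *Scx* and 54.5% without, and in 56.1% with *Tnc* and 54.9% without. *Igf1* was found in 14 of 35 cells with *Scx* and 32 of 88 without, and in 34.1% and 39.02% by *Tnc*.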

How the data were processed

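The authors sequenced polyA RNA of single cells captured on a Fluidigm C1 with the SMARTer kit, used Bowtie2 in its local mode against the mm10 (GRCm38) genome, and deposited raw read counts for each gene, without molecular identifiers. They also deposited a normalized signal table of 10948 genes and 199 cells, scaled by spike-in size factors and gene length. In it each gene without reads sits at a floor set by its length, and 99.96% of values are whole multiples of the gene's lowest value (tolerance 1e-06).

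Of the 225 captured cells the deposited table retains 199. A filter as worded in the study's methods (more than 250 mapped reads, more than 2000 genes with a read and under 25% spike-in reads) leaves 193 of these here, and 1 comparison cell and 0 tendon-rule cells fall outside it. Rules were applied to the deposited counts (23165 genes, spike-ins left out). Differences are of means of log2(signal + 1). Doublets were not removed here and no caller was run, so a captured well with markers of both rules may hold more than 1 cell. Named genes were the rule genes, the 10 largest called differences in each direction and, per list, the 4 tested members with the largest absolute difference, with list members of note at 0 or under the filter named after their values were seen. Members and lists were chosen with earlier results of these data known. Exact intervals are Clopper-Pearson at 95% and account for the counting of cells alone. For thinned values each cell was drawn to 500000 reads (seed 42), which left out 3 comparison cells. Positions are from GENCODE vM21. The code was tested on simulated data, in which an assumed spread between cells (cells without reads and a gamma factor) gave calls among unchanged genes at a share similar to that of the real table. Python 3.11.15, numpy 2.4.6, pandas 2.3.3 and scipy 1.17.1 were used. Alternatives were CPM, other pseudocounts, filters, rules, runs and comparison cells.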

Additional observations from a re-analysis of the deposited data

How the results depend on the processing

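The number of tendon-rule cells was 14 to 26 under the other rules, and the number that also met the chondrogenic rule 2 to 11. The counts of called genes moved by more than 1.5 times under 4 settings. With a pseudocount of 10 they were 189 higher and 93 lower. With 1 read per rule gene, which made 26 tendon-rule and 55 comparison cells, they were 199 and 754. Within single runs, where no agreement between runs was asked, they were 984 and 1168 in NXT0142 and 1412 and 836 in NXT0143. Leaving out the 3 cells under both rules gave 829 higher and 370 lower. The difference in genes detected changed sign, from 44 to -74.5 when thinned, -94 at 5 reads, -88 and -123 in the runs, and was 257.5 without the cells under both rules. The 43 named genes that were called include *Sox9*, a gene of the chondrogenic rule. All 43 kept their direction on the CPM scale, with other pseudocounts, after thinning and without the cells under both rules. They also kept it within each run, where agreement of the runs is part of the call. *Col9a2* turned from 1.72 to -0.16 against all other zeugopod cells. The differences of *Itga5* (0.47) and *Col6a3* (-0.82) fell under 1 in size without the cells under both rules, and those of *Sox9*, *Fosb*, *Vcan*, *Sfrp2*, *Col9a2*, *Pdgfra*, *Col6a3* and *Myl9* against all other zeugopod cells. At least 1 in size with the same sign were 33 of the 43 with a pseudocount of 10, 40 in NXT0142 and 29 in NXT0143. Of 184 shares, 17 left their interval after thinning. No paired analysis was possible because cells carry numbers that only name them. No cause was tested.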
